A study of Mus musculus with 2 samples.

Results

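The genes described here set the electrical excitability of skeletal muscle: Clcn1, Scn4a, Kcnj11, Kcna7, Atp1b1, Atp1b2 and Fxyd1, 7 of 14675 annotated genes with reads. They were taken by gene name from the deposited transcript tables, whatever their level, and all 7 were found in both libraries, with 101 transcript models in replicate 1 and 132 in replicate 2. The material was whole gastrocnemius, a calf muscle, of male B6CASTF1/J mice aged 2 months, the first generation of a cross between C57BL/6J and CAST/EiJ. Long reads, each covering up to a whole transcript, were counted in 2 libraries made from 2 µg of RNA each. Both libraries belong to 1 group, so no treatment or genotype was compared and no p-value was computed. The labels call the libraries biological replicates 1 and 2, each technical replicate 1, and number their males differently. The labels also give both the same donor identifier, so the spread between the libraries may still be technical. Coordinates are on the mouse build mm10.

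In a muscle fibre, the sodium channel Nav1.4 carries the action potential along the surface membrane and the transverse tubules. The chloride channel ClC-1 steadies the resting potential, and potassium channels repolarise the membrane or, in the case of the ATP-sensitive channel, couple it to the energy state of the fibre. The sodium pump, made of an alpha and a beta subunit with a small FXYD protein as regulator, restores the sodium and potassium gradients that activity runs down. Loss of ClC-1 in mouse and human gives myotonia, a delayed relaxation after contraction.

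Replicate 1 held 1107128 reads of annotated genes and replicate 2 held 1402875. Levels are given as reads per 1000000 reads of annotated genes (CPM), in which each read counts 1 molecule and transcript length is not divided out. Counting intervals are at the 95% level and cover counting error only, since the reads carry no molecular identifiers. Where a gene had no reads, 3 counts is the limit, which is 2.71 CPM for replicate 1 and 2.14 CPM for replicate 2. Sampling noise alone did not cover the difference between the libraries, as the chi-square statistic of their counts was 6.21 per degree of freedom over 8626 genes with at least 10 summed reads. Fast fibre genes, all 8 of 8 detected, summed to 230591 CPM in replicate 1 and 210860 CPM in replicate 2, whereas 8 slow fibre genes summed to 2358 and 7607 CPM. Atp2a1 alone took 147454 and 144902 CPM of the fast fibre sums. Markers of other cell types were read too. Summed over their lists, fibroblast genes had 3187 CPM in replicate 1 and 1957 CPM in replicate 2, red cell genes 169.8 and 108 CPM, tendon genes 126 and 165 CPM, Schwann cell and nerve genes 95.7 and 106 CPM, and endothelial genes 56.0 and 77.0 CPM. Gsn alone took 2615 and 1314 CPM of the fibroblast sums. Of the 6 fibroblast genes, 3 were lower and 3 higher in replicate 1. Smooth muscle and pericyte genes had 3931 and 4300 CPM, of which Des, also a muscle fibre gene, took 3787 and 4092 CPM. Of the fat cell genes Fabp4 had 45.2 and 73.4 CPM, while Adipoq, Plin1 and Lep had no reads. Of the macrophage genes Lyz2 had 23.5 and 24.9 CPM, while Cd68 had none. Their part in the values below was not tested.

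With all reads counted, the sodium pump regulator was the most abundant of the 7 genes. The chloride channel and the voltage-gated potassium channel were the least abundant. Fxyd1 had 831 CPM in replicate 1 and 1123 CPM in replicate 2, a mean of 977 ± 207 CPM (SD, n = 2). Atp1b2 followed with 358 ± 75.4 CPM. Scn4a (96.4 ± 29.0 CPM), Kcnj11 (86.3 ± 8.19 CPM) and Atp1b1 (72.6 ± 32.4 CPM) came next, and their order differed between the libraries. Clcn1 (27.6 ± 1.79 CPM) and Kcna7 (24.7 ± 0.397 CPM) were lowest. Among neighbours in this order, Scn4a and Kcnj11 did not differ beyond the spread between libraries, nor did Kcnj11 and Atp1b1. Clcn1 and Kcna7 kept their order in both libraries, but their counting intervals overlapped in each. The lead of Fxyd1 rests on short reads without the start codon, described below. Reads with the whole coding chain had 299 CPM in replicate 1 and 278 CPM in replicate 2 for Fxyd1. For Atp1b2 they had 364 and 271 CPM. With all reads, per kilobase of the read-weighted mean model length, Fxyd1 (2707 ± 573 CPM per kb) and Atp1b2 (133 ± 28.0 CPM per kb) still led. That length was only 361 bases for Fxyd1, since its short models weigh in it. On that scale Atp1b1 (33.3 ± 14.9 CPM per kb) and Kcnj11 (28.8 ± 2.73 CPM per kb) stood above Scn4a (20.6 ± 6.21 CPM per kb), and Kcna7 (12.5 ± 0.201 CPM per kb) stood above Clcn1 (8.04 ± 0.520 CPM per kb).

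**Figure D1:**
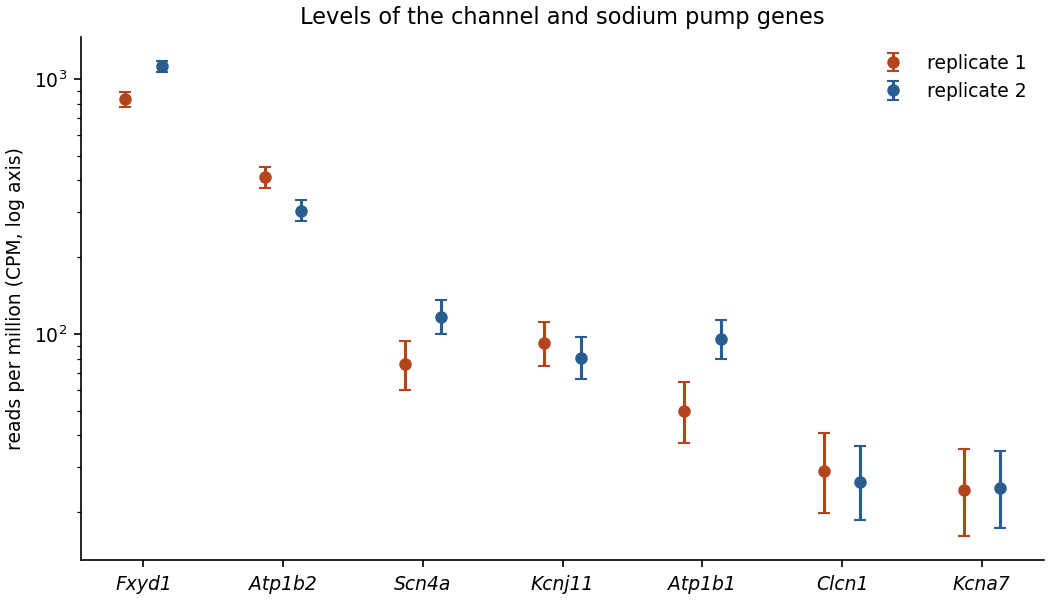
CPM (log axis) of the 7 channel and sodium pump genes in replicate 1 (left point) and replicate 2 (right point), with bars for the exact Poisson 95% interval. Fxyd1 reached 831 and 1123 CPM, and Clcn1 and Kcna7 stayed below 30 CPM in both libraries.

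None of the 7 genes differed over 2-fold between the libraries when all reads were counted, but Atp1b1 came near. Over all 4294 genes with at least 50 summed reads, 190 or 4.42% were over 2-fold apart, and 61.0% were lower in replicate 1. The log2 ratio of replicate 1 over replicate 2 had a median of -0.11 over these genes and of -0.03 over the 7. Atp1b1 had 49.7 CPM in replicate 1 and 95.5 CPM in replicate 2, the widest gap of the 7 (log2 ratio -0.94, interval -1.42 to -0.48). Scn4a had 75.9 and 117 CPM (-0.62, interval -1.02 to -0.24), and the ratio of Fxyd1 was -0.43 (interval -0.55 to -0.32). Atp1b2 was higher in replicate 1, with 411 CPM against 304 CPM in replicate 2 (0.43, interval 0.24 to 0.63). Thus 4 of the 7 had intervals that leave out 0, as had 25.5% of the 4294 genes. Of the 4, 3 were lower and 1 was higher in replicate 1, against 18.5% and 6.99% of all genes. Kcnj11 had 92.1 and 80.5 CPM (0.19), Clcn1 28.9 and 26.4 CPM (0.14) and Kcna7 24.4 and 24.9 CPM (-0.03). The intervals of these last 3 genes included 0, and the sign of Kcna7 turned with TMM scaling (0.06). For orientation, 5.29% of the 4294 genes had a log2 ratio at least as far from 0 as that of Atp1b1, and 15.5% had one at least as far as that of Scn4a.

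The beta subunits of the sodium pump were read in different proportions in the libraries. Beta subunits carry the alpha subunit to the membrane and tune its affinity for potassium. In rat muscle the beta1 protein prevails in slow oxidative fibres and the beta2 protein in fast glycolytic ones. Atp1b2 had 455 reads in replicate 1 and 427 in replicate 2. Atp1b1 had 55 reads in replicate 1 and 134 in replicate 2. Atp1b2 was thus read 8.27 times as often as Atp1b1 in replicate 1 (exact interval 6.24 to 11.2) and 3.19 times as often in replicate 2 (2.62 to 3.90). These intervals do not overlap, but they cover counting error only. How often other pairs of genes differ in this way was not counted. The ratio within a library does not depend on how the libraries are scaled. Atp1b1 made up 10.4% of beta subunit reads in replicate 1 (Wilson interval 8.11 to 13.3) and 22.7% in replicate 2 (19.5 to 26.2). The third beta gene, Atp1b3, made up 3.04% and 4.74%, and Atp1b4 had 1 and 2 reads.

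Slow fibre genes were also lower in replicate 1. All 8 of them were, with a median log2 ratio of -1.41 against -0.12 over all 8626 genes with at least 10 summed reads. Myh7, the slow myosin heavy chain, had 503 CPM in replicate 1 and 2838 CPM in replicate 2. Of the 8 fast fibre genes, 7 were higher in replicate 1, with a median of 0.48. The exception was Myh4, a fast myosin heavy chain, with 14898 CPM in replicate 1 and 18498 CPM in replicate 2. Its log2 ratio was -0.31 (interval -0.34 to -0.28). The part of fibre composition in the values of Atp1b1, Atp1b2 and Scn4a was not tested, and in whole muscle fewer fibres of a type and less RNA per fibre cannot be told apart.

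Fxyd6, which is also expressed in nerve tissue, had 59.6 CPM in replicate 1 and 134 CPM in replicate 2, a log2 ratio of -1.16. Of the 15 listed pump and FXYD genes, which include Atp1b1, Atp1b2 and Fxyd1, 7 had at least 10 summed reads. Of these, 6 were lower in replicate 1, with a median log2 ratio of -0.45 against -0.12 over all 8626 genes. Over the 4294 genes with at least 50 summed reads, 61.0% were lower in replicate 1.

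**Figure D2:**
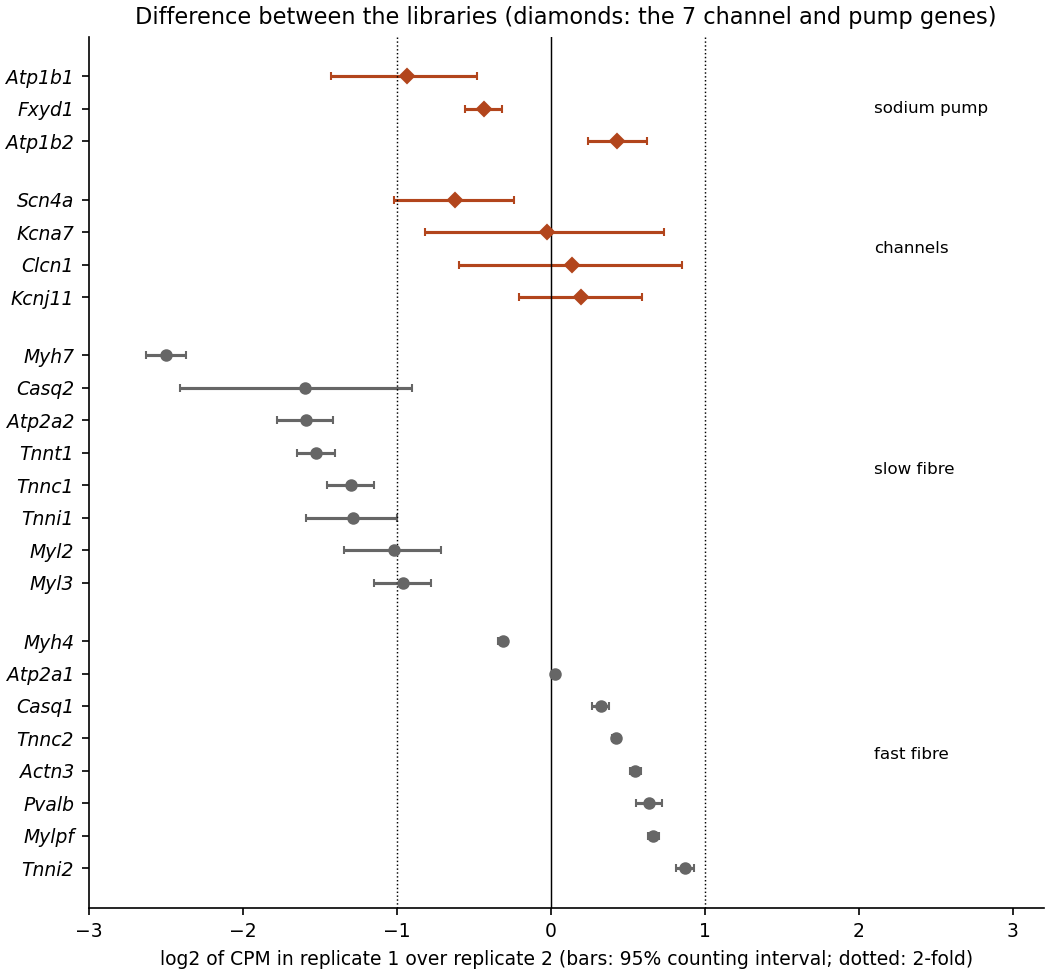
Log2 ratio of CPM in replicate 1 over replicate 2 for the 7 channel and pump genes (diamonds) and for the slow fibre and fast fibre genes (circles), with exact 95% counting intervals. Dotted lines mark a 2-fold difference. All 8 slow fibre genes lie left of 0, and of the pump genes shown Atp1b1 and Fxyd1 lie left of 0 and Atp1b2 lies right of it.

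Transcripts of Atp1b2 and Atp1b1 were mostly complete. Of the spliced Atp1b2 reads, 92.0% ± 0.612 (SD, n = 2) held the start codon and the whole coding chain of Atp1b2-201, with 403 of 436 reads in replicate 1 and 380 of 415 in replicate 2. Among spliced Atp1b1 reads 87.1% ± 2.82 covered the coding chain of Atp1b1-201, 40 of 47 and 98 of 110. Each internal exon of these transcripts that could be scored was included in over 95% of reads. Atp1b1 also had 8 reads in replicate 1 and 22 in replicate 2 of a single-exon genomic piece at chr1:164437109-164437725. The genomic class holds reads that overlap a gene without matching its splice junctions. That piece lies in the 3′ untranslated part of the last exon, and its bounds are those of the stretch where Atp1b1 overlaps the end of Nme7 on the other strand. Nme7 itself had 1 and 5 reads. The deposited models carry a strand, that of this piece being the strand of Atp1b1. How the strand of a single-exon read was set is not given in the sources used here, so the gene of these reads is uncertain.

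In 4 of 436 Atp1b2 reads across the junction of exons 5 and 6 in replicate 1, and in 6 of 413 in replicate 2, exon 6 began 2 bases late. The annotated junction, from the GENCODE transcript Atp1b2-201 on build mm10 (chr11:69601604-69602444, minus strand, exon bases only), is shown with the 2 lost bases in capitals because their loss shifts the reading frame.
Atp1b2 exon 5 and 6: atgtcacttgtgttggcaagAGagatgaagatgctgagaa
The share was 0.917% in replicate 1 (Wilson interval 0.357 to 2.33) and 1.45% in replicate 2 (0.667 to 3.13). A further 2 reads in each library had an intron of 1217 bases removed from the last exon, within the 3′ untranslated part.

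Most Fxyd1 reads were short and did not hold the start codon. Fxyd1 encodes phospholemman, a small membrane protein that lowers the pump's affinity for sodium until it is phosphorylated. The gene lies at chr7:31051678-31057199 on the minus strand. Its leading model was Fxyd1-213, an annotated transcript of 3 exons and 255 bases of the retained intron type with no start codon. Fxyd1-213 took 479 of 919 non-genomic reads in replicate 1 and 971 of 1572 in replicate 2, or 56.9% ± 6.82. Counted with the other models that begin there or further downstream, short reads numbered 554 and 1133. The reads of Fxyd1-213 are classed as annotated, and those of the other short models are mostly incomplete splice matches, models whose junctions are a part of an annotated chain.

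The reads stopped at 1 exon rather than thinning out along the transcript. All spliced Fxyd1 reads reached the third exon from the 3′ end of Fxyd1-212, whose 5′ end lies 0.241 kb from the 3′ end. Only 39.7% in replicate 1 and 27.9% in replicate 2 reached the next exon upstream, at 0.278 kb. From there to the start codon exon, at 0.451 kb, the share stayed at 39.3% and 27.5%. The first exon of Fxyd1-213 is shown because the step falls on it (chr7:31052128-31052193, minus strand). Its first 16 bases, in capitals, lie in the intron before the coding exon, and the 50 bases in lower case are coding in Fxyd1-212.
Fxyd1-213 exon 1: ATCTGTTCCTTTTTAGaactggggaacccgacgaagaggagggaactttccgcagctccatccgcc
The deposited models give 1 start for all reads of a model, so where each short read began was not measured, and a transcript that starts here and a truncated copy of a longer one cannot be told apart.

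The short reads of Fxyd1, and not its full-length reads, had a lower level in replicate 1. Full-length reads, with the start codon and the whole coding chain, numbered 331 in replicate 1 and 390 in replicate 2, or 299 and 278 CPM. Their log2 ratio was 0.11 (interval -0.11 to 0.32). Short reads had 500 CPM in replicate 1 and 808 CPM in replicate 2, a log2 ratio of -0.69 (interval -0.84 to -0.54). The intervals of the full-length and the short reads do not overlap, but they cover counting error only. How often parts of other genes differ in this way was not counted. This division of the reads was chosen after seeing the data. Full-length reads were 36.0% of spliced Fxyd1 reads in replicate 1 (33.0 to 39.2) and 24.8% in replicate 2 (22.7 to 27.0).

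**Figure D3:**
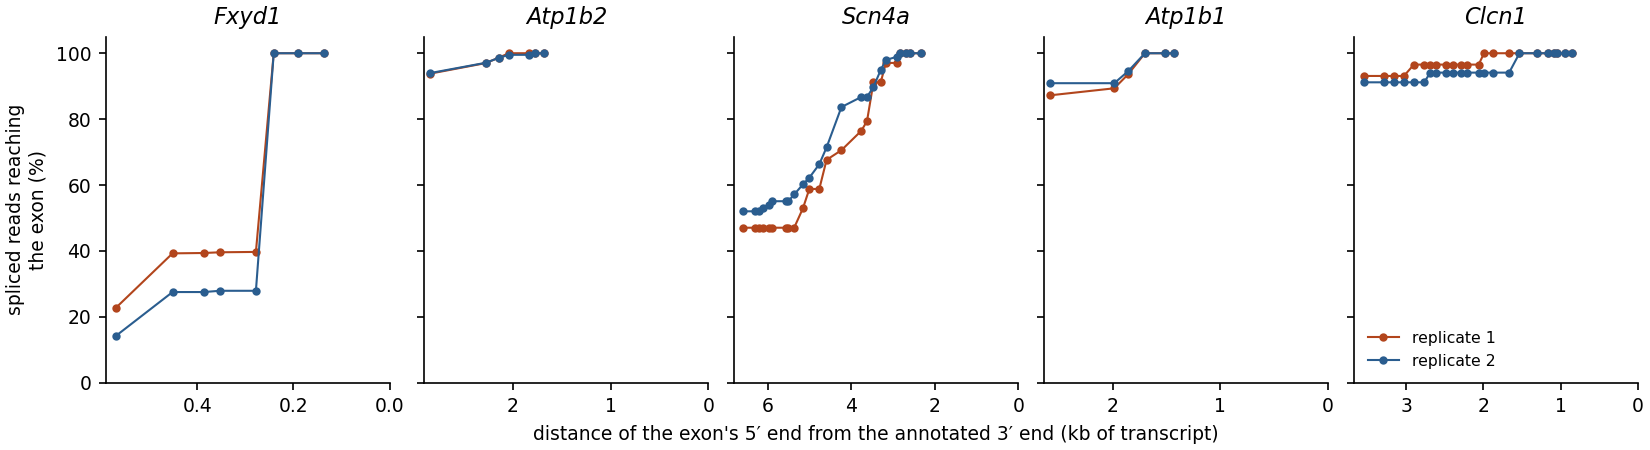
Share of a gene's spliced reads that reach each exon of its leading coding transcript, against the distance of the exon's 5′ end from the annotated 3′ end (kb of transcript, 3′ end at the right), for replicate 1 and replicate 2. The Fxyd1 curve drops in 1 step to 39.7% and 27.9%, the Scn4a curve declines gradually to 47.1% and 52.0%, and the other 3 stay above 85%.

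Full-length Fxyd1 transcripts used several first exons in similar proportions in both libraries. Among reads with an exon before the start codon exon, the distal first exon, that of Fxyd1-212 at chr7:31055551-31055667, was used by 209 of 355 in replicate 1 and 225 of 413 in replicate 2, or 56.7% ± 3.11. The proximal first exon, that of Fxyd1-203 at chr7:31054765-31054807, was used by 134 and 177, or 40.3% ± 3.61. Their annotated starts lie 860 bases apart, and neither exon holds coding sequence. The start codon exon had a longer form with 64 more bases before the start codon in 10.5% ± 0.904 of these reads. That form was seen after the distal first exon in 21 of 209 and 27 of 225 reads, and after the proximal one in 13 of 134 and 19 of 177.

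Coding exons of Fxyd1 were rarely skipped. The 37-base coding exon was included in 98.0% of reads that scored it in replicate 1 and 97.2% in replicate 2, and the 75-base coding exon in 99.1% and 99.5%. In 10 and 8 reads the 75-base exon was 52 bases longer. In 3 of 360 reads in replicate 1 (0.833%, Wilson interval 0.284 to 2.42) and 17 of 433 in replicate 2 (3.93%, 2.47 to 6.20) it was 451 bases longer and took in the next exon upstream with the intron between them. The intervals of that form do not overlap, but they cover counting error only. Past the stop codon, the last intron ended at the acceptor of Fxyd1-212 in 86.2% ± 0.0259 of spliced reads. An acceptor 35 bases further on was used in 9.53% ± 0.870, and the intron was kept in 4.04% ± 0.773. Read-through chains into Fxyd7, the neighbouring FXYD gene, had 1 read in replicate 1 and 3 in replicate 2, and Fxyd7 had no reads of its own.

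Almost no Scn4a read matched an annotated transcript. Scn4a encodes the alpha subunit of Nav1.4, and mutations in its human counterpart cause periodic paralysis and myotonia. The gene is annotated at chr11:106318592-106353288 on the minus strand, and its coding transcript Scn4a-201 has 24 exons. It had 84 reads in replicate 1 and 164 in replicate 2, of which 1 and 4 were classed as Scn4a-201. For comparison, the median gene with at least 50 summed reads had 83.0% of its reads in annotated transcripts, and Scn4a had 2.02% over both libraries.

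The leading spliced chain of Scn4a began in an exon that Scn4a-201 lacks. It had 25 exons, with 12 reads in replicate 1 and 38 in replicate 2 of the identical chain. Its first exon, of 176 bases, lay at chr11:106365475-106365650 and began 12362 bases upstream of the annotated gene. An intron of 15683 bases joined it to a second exon at chr11:106349117-106349791, which holds the start codon at 106349387-106349389 and further bases before it. Of spliced reads that reached the start codon exon, 14 of 16 in replicate 1 and 45 of 51 in replicate 2 began in the upstream exon, or 87.9% ± 0.520. Scn4a-201 begins with its start codon, as its first 30 bases show (chr11:106349360-106349389, minus strand, start codon in capitals). The 578 bases upstream of the start codon in the reads are therefore leader that Scn4a-201 does not have.
Scn4a-201 start: ATGgccagctcatctctgcccaccctggtc
The upstream exon lies within the first bases of Prr29, a gene on the other strand annotated from 106365472, which had 7 reads in replicate 1 and 2 in replicate 2, and the reads of the exon are spliced to the start codon exon of Scn4a. A RefSeq promoter window of Scn4a on build GRCm38.p6 (chr11:106349341-106349640) falls inside the second exon of the reads.

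**Figure D4:**
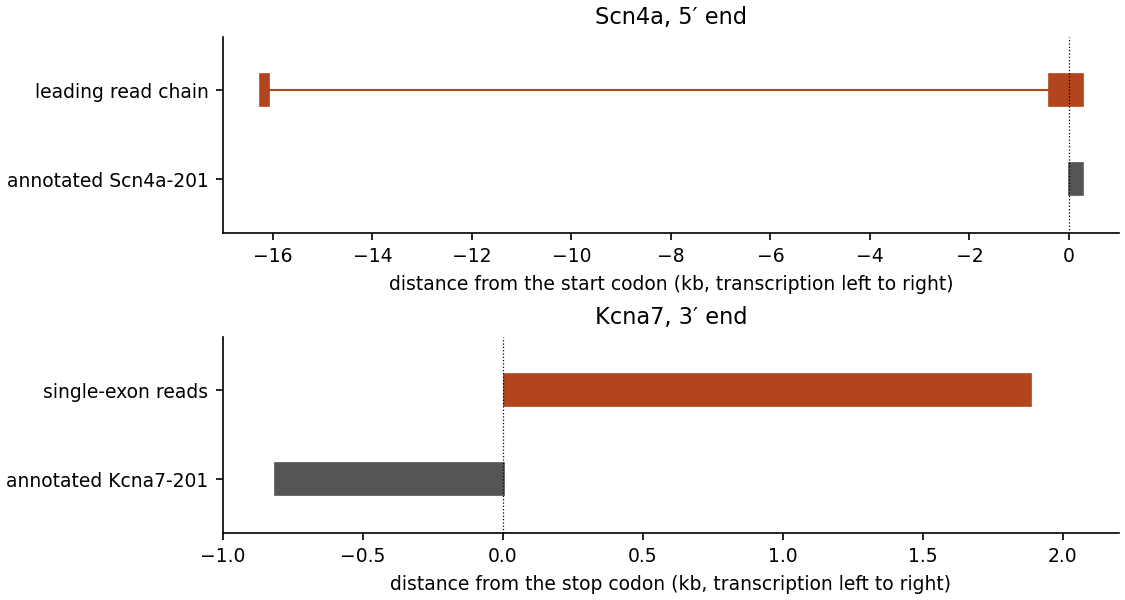
Positions of exons against the start codon of Scn4a (top) and the stop codon of Kcna7 (bottom), in kb along the direction of transcription, for the reads (orange) and the annotated transcript (grey). The leading Scn4a chain starts in an exon about 16 kb upstream of the first exon of Scn4a-201, and the single-exon Kcna7 reads extend about 1.9 kb past the stop codon.

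At the 3′ side, 94.0% of Scn4a reads in replicate 1 (Wilson interval 86.8 to 97.4) and 94.5% in replicate 2 (89.9 to 97.1) belonged to models that ran over 50 bases past the annotated end, by up to 1050 and 1052 bases. Many were single-exon pieces of this end, 49 in replicate 1 and 66 in replicate 2. The same kind of piece was classed as an incomplete splice match in replicate 1 and as genomic in replicate 2, and the leading chain was classed as holding an unannotated splice site in replicate 1 and as a new combination of known sites in replicate 2. Class shares of Scn4a therefore cannot be compared between the libraries, which were annotated 1 at a time.

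Counted by structure instead of class, the single-exon pieces of Scn4a had 44.3 CPM in replicate 1 and 47.0 CPM in replicate 2. Its spliced reads, 34 and 98, had 30.7 and 69.9 CPM, a log2 ratio of -1.17 (interval -1.79 to -0.61). That is over 2-fold, which was the case for 4.38% of 3908 genes with at least 50 summed spliced reads. Reads with the whole coding chain, 13 and 43, had a log2 ratio of -1.35 (interval -2.40 to -0.46). These 2 ways of counting were chosen after seeing the data. Spliced reads thinned out gradually towards the 5′ end: 47.1% of them in replicate 1 and 52.0% in replicate 2 reached the first coding exon, and 41.1% ± 3.99 covered the coding chain.

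All of the 12 internal coding exons of Scn4a that could be scored were included in over 95% of reads that held them exactly or skipped them, in each library. Reads with shifted exon bounds do not enter that share, and 1 junction was shifted in a few. In 2 of 33 reads in replicate 1 and 7 of 97 in replicate 2, exon 21 ended 4 bases later and exon 22 began 7 bases later than annotated, a net loss of 3 bases that keeps the reading frame. The annotated junction of Scn4a-201 is printed with the 7 lost bases in capitals (chr11:106322866-106323895, minus strand, exon bases only).
Scn4a exon 21 and 22: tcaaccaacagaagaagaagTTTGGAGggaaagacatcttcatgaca
The shares were 6.06% (Wilson interval 1.68 to 19.6) and 7.22% (3.54 to 14.2). In human SCN4A the corresponding intron is of the rare AT-AC type, which lacks the usual splice site letters. Intron bases could not be read here, since no genome sequence of this build was used.

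Clcn1 reads were few but mostly reached the first exon. Clcn1 (chr6:42286685-42315756, plus strand) had 32 reads in replicate 1 and 37 in replicate 2. Of its spliced reads, 20 of 29 in replicate 1 and 25 of 34 in replicate 2 covered the whole coding chain of Clcn1-201, or 71.2% ± 3.23, although that chain has 23 exons. All of the 24 internal exons scored had a mean inclusion below 5% or above 95% of reads that held them exactly or skipped them. A further 7 reads in replicate 1 and 8 in replicate 2 were spread over 7 unannotated chains in each library, none of which occurred in both.

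The exon of Clcn1 known to respond to Mbnl splicing factors was nearly always left out. Exon 7a, 79 bases at chr6:42293444-42293522, is skipped in healthy adult muscle and retained in mouse models of myotonic dystrophy, where its inclusion shifts the frame and ends the protein early. It was present in 1 of 28 reads in replicate 1 (3.57%, Wilson interval 0.633 to 17.7) and in 2 of 32 in replicate 2 (6.25%, interval 1.73 to 20.1), so at this depth the share is known only within wide limits. Of the 2 reads in replicate 2, 1 belonged to a model whose first exon it is. The exon is printed with the bases of the following exon up to the stop codon that its inclusion creates, in capitals, at bases 18 to 20 of that exon (GENCODE Clcn1-207, chr6:42293444-42294097, plus strand, exon bases only).
Clcn1 exon 7a and start of exon 8: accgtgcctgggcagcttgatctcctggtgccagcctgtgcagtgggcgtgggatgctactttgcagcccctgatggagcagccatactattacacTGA
A start of the following exon 3 bases earlier was used in 3 of 28 reads in replicate 1 (10.7%, Wilson interval 3.71 to 27.2). In replicate 2 it was used in 0 of 32 (interval 0 to 10.7).

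The start of Clcn1 in the models, 42286685, is also where RefSeq places it, and 27 of 29 spliced reads in replicate 1 and 31 of 34 in replicate 2 reached the first exon. The RefSeq promoter window around this start, of 300 bases, is shown with matches to the E-box letters CANNTG in capitals (GRCm38.p6, chr6:42286435-42286734, plus strand). E-boxes are bound by myogenic factors such as MyoD, among others. The motif reads the same on both strands.
Clcn1 promoter: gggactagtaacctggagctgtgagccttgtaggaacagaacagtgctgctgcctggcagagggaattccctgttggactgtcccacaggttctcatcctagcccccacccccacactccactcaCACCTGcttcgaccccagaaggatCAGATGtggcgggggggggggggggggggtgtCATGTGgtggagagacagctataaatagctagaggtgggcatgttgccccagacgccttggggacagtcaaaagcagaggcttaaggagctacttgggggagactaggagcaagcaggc
It holds 3 matches. Of 32851 RefSeq promoter windows, 17.6% hold 3 or more and 72.3% hold at least 1. Windows were found for 5 of the 7 genes. The Kcna7 window also holds 3 matches, and those of Fxyd1, Scn4a and Atp1b1 hold 0. The Fxyd1 window (chr7:31054804-31055103) lies at the proximal first exon and does not cover the distal one. The Scn4a window does not cover the upstream exon of its reads. Most reads with the start codon began in those uncovered exons, so the counts of 0 do not describe their starts. A match is a description of the letters only.

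Most Kcna7 reads in each library belonged to a model that begins at the annotated end of the gene. Kcna7 encodes the voltage-gated potassium channel Kv1.7 (chr7:45405653-45409763, plus strand). Its reads were of 2 models only. Kcna7-201, with 2 exons, had 11 reads in replicate 1 and 8 in replicate 2. A single-exon genomic piece that starts at the annotated end, 45409763, and runs to 45411648 in replicate 1 and 45411647 in replicate 2, had 16 and 27. That piece thus made up 59.3% of Kcna7 reads in replicate 1 (Wilson interval 40.7 to 75.5) and 77.1% in replicate 2 (61.0 to 87.9). With both libraries summed, 69.4% of Kcna7 reads were genomic, a share reached by 1.05% of the 4294 genes, whose median was 1.32%. The annotation ends 3 bases after the stop codon, as the last 30 bases of Kcna7-201 show (chr7:45409734-45409763, plus strand, stop codon in capitals).
Kcna7-201 end: gggaaacacatggtgactgaggtgTGAggg
Ntf5, the next gene on the same strand, begins at 45413695 and had 6 and 5 reads. Reads of Kcna7-201 alone had 9.94 CPM in replicate 1 and 5.70 CPM in replicate 2, and the level of 24.7 ± 0.397 CPM given above rests on the assignment of the other piece to this gene.

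Kcnj11 was read as a single exon. Kcnj11 encodes Kir6.2, the pore of the ATP-sensitive potassium channel, and lies next to Abcc8 at chr7:46093953-46100764 on the minus strand. It had 102 reads in replicate 1 and 113 in replicate 2, and all were classed as annotated. The single-exon transcript Kcnj11-205, which holds the whole coding sequence, took 97 and 105 of them, or 94.0% ± 1.54. Of its regulatory sulfonylurea receptor partners, Abcc9 (SUR2) had 40.6 CPM in replicate 1 and 62.7 CPM in replicate 2. Abcc8 (SUR1) had 2 and 5 reads. Kcnj11 reads outnumbered Abcc9 reads 2.27 to 1 in replicate 1 (exact interval 1.58 to 3.29) and 1.28 to 1 in replicate 2 (0.963 to 1.72), without allowance for the length of the transcripts.

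**Figure D5:**
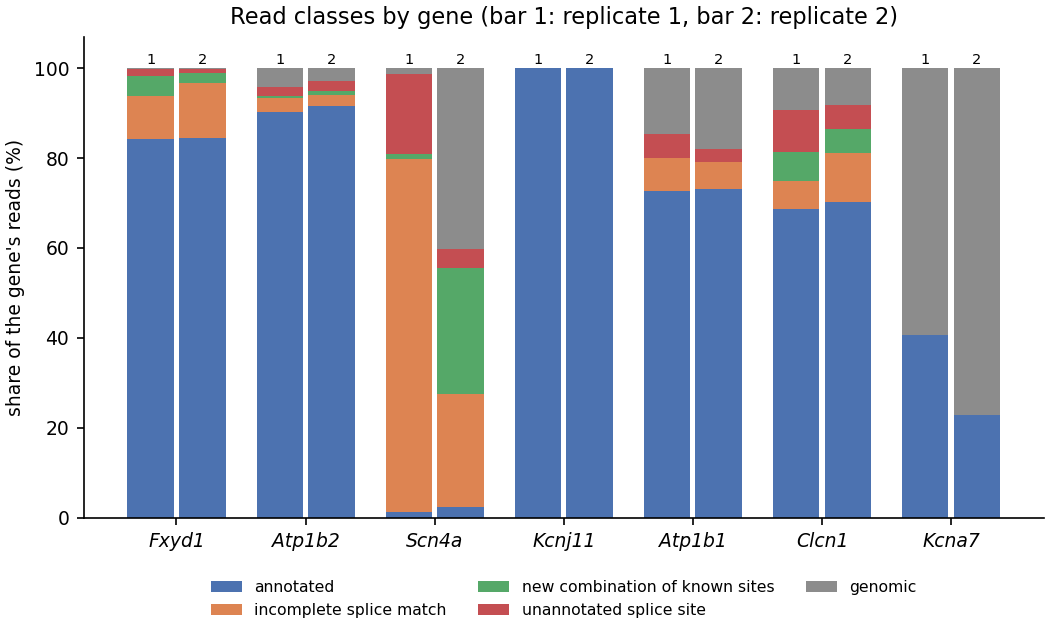
Share of each gene's reads by the class that the authors' annotation gave them, with replicate 1 as the left bar and replicate 2 as the right bar of each pair. Kcnj11 reads are all annotated, most Kcna7 reads are genomic, and the same Scn4a structures carry different classes in the libraries.

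Other channel genes showed where these members stand. Of 39 channel genes and partners listed, the 4 channels described here included, 21 had at least 10 summed reads. Of these, 15 were lower and 6 higher in replicate 1, with a median log2 ratio of -0.21 against -0.12 over all 8626 genes. For comparison, 61.0% of the 4294 genes with at least 50 summed reads were lower in replicate 1. Among potassium channels, Kcnc4 (Kv3.4) had 72.3 CPM in replicate 1 and 113 CPM in replicate 2, and the inward rectifier Kcnj12 had 79.5 and 60.6 CPM. Scn4b, a beta subunit of sodium channels, had 30.7 and 49.9 CPM. Of the chloride channel family, the intracellular exchangers Clcn4 (57.8 and 48.5 CPM) and Clcn3 (19.9 and 28.5 CPM) were read about as often as Clcn1 or more. Clic4, a chloride intracellular channel protein, had 18.1 and 28.5 CPM. A total of 10 listed genes, Scn3a, Kcna2 and Kcnd3 among them, had no reads.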

How the data were processed

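The authors deposited raw read counts for each transcript model, as whole numbers, with the exon structures and lengths of the models. Per the notes deposited with the files, reads were aligned to mm10 and annotated with GENCODE M21, 1 library at a time. The models carry TALON identifiers. For the aligner, for versions and for filters, the sources used here give nothing. Ends of models were assigned per model, so those of single reads were not measured.

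Counts were summed per gene and divided by the reads of annotated genes, spike-ins left out. Ratios of replicate 1 over replicate 2 used a prior count of 0.5 and exact conditional intervals, levels exact Poisson intervals and shares Wilson intervals (scipy 1.17.1). A 2-fold difference was read only for genes with 50 or more reads in all. Models were compared by exact intron chain. An internal exon was scored by reads that extend past both ends and hold it exactly or skip it, with at least 20 in each library. Reads in which an exon with other bounds overlaps it were left out of its inclusion. Neighbouring levels differed beyond the spread if their order was the same in both libraries and their mean log2 difference exceeded the pooled SD. The arithmetic was tested on simulated counts. TMM (edgeR 4.0.16) and median-ratio (DESeq2 1.42.0) scaling were alternatives.

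The 7 members were named always, their partners where they had at least 50 summed reads, at most 12 a list, and at most 5 unannotated chains a gene. Other genes and structures were named after their values were seen. Results on some partner genes are not reported here. The members and the 12 gene lists were chosen with earlier results of these data known.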

Additional observations from a re-analysis of the deposited data

Results flagged for a closer look

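Reads assigned to the strand opposite to 3 of the genes appeared in both libraries above the 3 counts that a count of 0 allows. They belong to separate antisense models and are not part of the sums above. All of these models have a single exon, so no splice junction fixes their strand. How the strand of a single-exon read was set is not given in the sources used here, so the strand of these reads is uncertain. Over Kcna7 there were 17 antisense reads in replicate 1 and 24 in replicate 2, all of 1 single-exon model whose bounds, chr7:45405653-45407015, are those of the first exon of Kcna7-201. Over Clcn1 there were 10 in replicate 1 and 22 in replicate 2, of which 6 and 15 were of single-exon models with their lower bound at 42288210, within the gene. Kcnj11 had 4 in replicate 1 and 6 in replicate 2, of 1 model that runs past the annotated 5′ end of the gene to 46102838. Scn4a had 0 and 2, Atp1b1 had 0 and 1, and Fxyd1 and Atp1b2 had none in either library.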

How the results depend on the processing

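No paired analysis was possible because both libraries belong to 1 group. The count of 0 members over 2-fold apart was also 0 with TMM or median-ratio scaling, with no minimum and with annotated transcripts only. It was 1 with the deeper library thinned (Atp1b1, log2 ratio -1.06), 1 with spliced reads only and 1 with full-length reads only (Scn4a in both). The 190 genes over 2-fold apart became 4914 with no minimum, where low counts enter. No exon lay between 5 and 95% inclusion with both libraries, among reads that held it exactly or skipped it. Reads with other bounds of an exon are left out, so alternative bounds such as the longer start codon exon of Fxyd1 cannot show in this count. That count ranged from 0 to 1 with a library left out and was 1 with at least 10 reads, a setting chosen after seeing the data, and both exons are longer Fxyd1 forms scored by few reads.

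With at least 50 summed reads the list medians (log2) were -0.51 for channels and partners (main value -0.21), -0.0019 for Schwann cell and nerve genes (-0.38), -0.14 for endothelium (-0.27) and 0.21 for fibroblasts (-0.003). TMM gave 0.083 for fibroblasts and 0.0060 for macrophages (-0.08). Medians of the smooth muscle (-0.11), fat cell (-0.69), erythroid (0.74) and tendon (-0.23) lists moved by 0.1 or less.

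The log2 ratio of Scn4a was -1.26 with annotated transcripts only, from 1 and 4 reads. It was 0.09 without genomic reads, which leaves out its 3′ pieces in replicate 2 but not in replicate 1. That of Kcna7 was 0.76 with annotated transcripts only and 0.77 without genomic reads. The levels of Scn4a and Kcna7 with annotated transcripts only were 2.86 and 11.9 CPM. Clcn1, Kcna7 and Scn4a, with 62 to 248 summed reads, are limited by depth.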
